A study of Mus musculus with 2 samples.

Results

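Transcripts of 10 heat-shock chaperone genes were followed in cells of the mouse stria vascularis (SV), the vascularised epithelium of the cochlear lateral wall. The genes were Hspa8, Hspa1a, Hspa1b, Hsph1, Dnajb1, Dnaja4, Hsp90aa1, Hspd1, Hspe1 and Hspb1, taken by Ensembl identifier from the 32285 genes listed for the Tie2-GFP library and the 27998 listed for the NG2-DsRed library, and all 10 were listed in both. They were chosen by a measured pattern: heat-shock genes were among the leading genes of a cluster of Tie2-GFP endothelial cells (ECs) in earlier work on these same counts. Their levels and their joint variation in the Tie2-GFP ECs are therefore a description and carry no test. The NG2-DsRed library took no part in that clustering.

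Both groups were reporter mice aged 1 to 3 months with no further treatment named. In Tie2-GFP mice the promoter of the angiopoietin receptor gene Tie2 (Tek) drives green fluorescence in ECs (it is also active in some blood-lineage cells), and in NG2-DsRed mice the promoter of the proteoglycan gene NG2 (Cspg4) drives red fluorescence in pericytes (PCs) and other NG2-positive cells. The SV of 10 mice (20 cochleae) of each line was pooled, digested with collagenase and then papain at body temperature. The design text gives fluorescence-activated sorting for both pools, while the methods describe sorting only where enrichment was needed. Each pool gave 1 single-cell library with unique molecular identifiers (UMIs), so each line has 1 sample, no difference below has a replicate check, and intervals cover counting error only. Reporter line, batch and processing software cannot be told apart when the libraries are compared. Barcodes were put into classes by marker genes. An EC had a UMI for at least 4 of Pecam1, Cdh5, Cldn5, Flt1, Egfl7 and Ramp2. A mural barcode had at least 3 of Pdgfrb, Rgs5, Vtn and Notch3 and at most 1 of the EC genes, and an intermediate barcode, the pigment cell of the SV, had all of Dct, Tyr and Kcnj10.

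Heat-shock proteins keep other proteins folded. HSP70 chaperones bind exposed stretches of unfolded clients in a cycle that J proteins start and HSP110 proteins help to reset, HSP90 completes the folding of signalling proteins, the HSP60 and HSP10 chaperonin folds proteins inside mitochondria, and small heat-shock proteins hold clients without using ATP. Heat-shock factor 1 binds repeats of the letters GAA and TTC in promoters and induces many of these genes after heat or other protein damage.

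The promoters of these genes are shown because the repeats are the feature by which heat-shock genes are usually recognised. Windows from 250 bases before to 50 bases after the annotated start were taken from RefSeq (GRCm38.p6, the same coordinates as mm10), and 8 of the 10 genes had at least 1 window. The windows were searched for 2 adjoining units, GAANNTTC or TTCNNGAA, which read alike on both strands, and for 3 units, GAANNTTCNNGAA or TTCNNGAANNTTC, which contain the first. Of 27025 genes with a window, 17.0% held 2 units and 0.662% held 3 units. Among the chaperones 7 of the 8 held 2 units in at least 1 window, and Hsph1, Hspe1 and Hspd1 held 3. A match is a stretch of letters and not a bound site. Stretches of 100 bases upstream of the start, with the units in capitals, were as follows.
Hspa1a, chr17:34972182-34972281, minus strand: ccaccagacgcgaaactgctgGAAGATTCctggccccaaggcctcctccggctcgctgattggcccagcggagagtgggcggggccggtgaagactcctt
Hspb1, chr5:135887794-135887893, plus strand: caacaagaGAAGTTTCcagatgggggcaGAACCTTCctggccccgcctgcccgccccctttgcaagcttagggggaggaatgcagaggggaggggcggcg
Dnajb1, chr8:83608050-83608149, plus strand: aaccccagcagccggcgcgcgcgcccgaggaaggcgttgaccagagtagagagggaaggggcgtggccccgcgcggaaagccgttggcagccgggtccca
The Hspa1b stretch, chr17:34959264-34959363 on the minus strand, was identical to that of Hspa1a in all 100 bases, and the whole windows of the pair were identical in 296 of 300 bases. Neither annotated Dnajb1 window held a unit pair. Shorter stretches of 30 bases around the longest runs of units were as follows.
Hspe1, chr1:55088053-55088082, plus strand: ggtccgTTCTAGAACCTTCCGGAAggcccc
Hspd1, the same bases read on the minus strand: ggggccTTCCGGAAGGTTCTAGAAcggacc
Hsph1, chr5:149636287-149636316, minus strand: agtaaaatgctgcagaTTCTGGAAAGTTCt
Dnaja4, chr9:54699496-54699525, plus strand: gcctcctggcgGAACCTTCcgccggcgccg
Hspe1 and Hspd1 lie head to head on chromosome 1, and the run of 18 bases lies at -89 to -72 from the start of Hspe1. Hspd1 has 2 annotated starts: the run lies at -144 to -127 from one of them, and the window of the other, which is the outer end of the gene, held no unit pair. The Hsph1 run lies 36 to 48 bases past one annotated start and 15 to 27 past the other. The Dnaja4 stretch lies at -52 to -45 from one annotated start, whose window held another match of the same length at -90 to -83. The window of the other Dnaja4 start held no unit pair. Hspa8, at chr9:40800984-40810087 on the plus strand, and Hsp90aa1, at chr12:110690605-110702728 on the minus strand, had no window in the table used here.

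The Tie2-GFP library held 633 barcodes and 5432289 UMIs and the NG2-DsRed library 201 barcodes and 1232599 UMIs, with 0 barcodes in common. The rule found 379 ECs, 4 mural and 87 intermediate barcodes in the Tie2-GFP library, with medians of 7431 UMIs in ECs and 15955 in intermediate barcodes. In the NG2-DsRed library it found 60 ECs, 97 mural and 25 intermediate barcodes, with medians of 9146, 3027 and 10383 UMIs. The summed level of the 6 EC genes was 6661 counts per 1000000 UMIs (CPM) in Tie2-GFP ECs, 0 in mural and 15.2 CPM in intermediate barcodes of that library. In the NG2-DsRed library 44 of the 60 ECs also had a UMI for 2 or more mural genes, against 32 of 379 in the Tie2-GFP library, and 3 of the 25 intermediate barcodes had 2 or more EC genes, 2 of which met both class rules and were counted in both. The share of UMIs from mitochondrial genes had a median of 9.31% in Tie2-GFP intermediate barcodes and 1.82% in ECs, and 5.38% and 2.72% in the NG2-DsRed library. Within the limits of the study, which keep barcodes of at most 5% mitochondrial UMIs, 6 Tie2-GFP intermediate barcodes were left.

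The 10 genes together made up 1.76% of all UMIs of Tie2-GFP ECs (17623 CPM) and were lower in every other class with at least 10 barcodes. The sum was 2371 CPM in Tie2-GFP intermediate barcodes, 4396 CPM in NG2-DsRed ECs, 3776 CPM in mural and 2025 CPM in intermediate barcodes of that library. Intermediate barcodes stood 2.89 below ECs on the log2 scale in the Tie2-GFP library (log2 ratio -2.89, 95% interval -2.95 to -2.84, and -2.60 with the 6 barcodes within the limits) and closer in the NG2-DsRed library (log2 ratio -1.12, -1.26 to -0.98). Mural barcodes lay near the ECs of their own library (log2 ratio -0.22, -0.32 to -0.12). The ECs of the Tie2-GFP library exceeded those of the NG2-DsRed library by 2.01 on the log2 scale (1.95 to 2.07), over the genes listed in both.

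**Figure D1:**
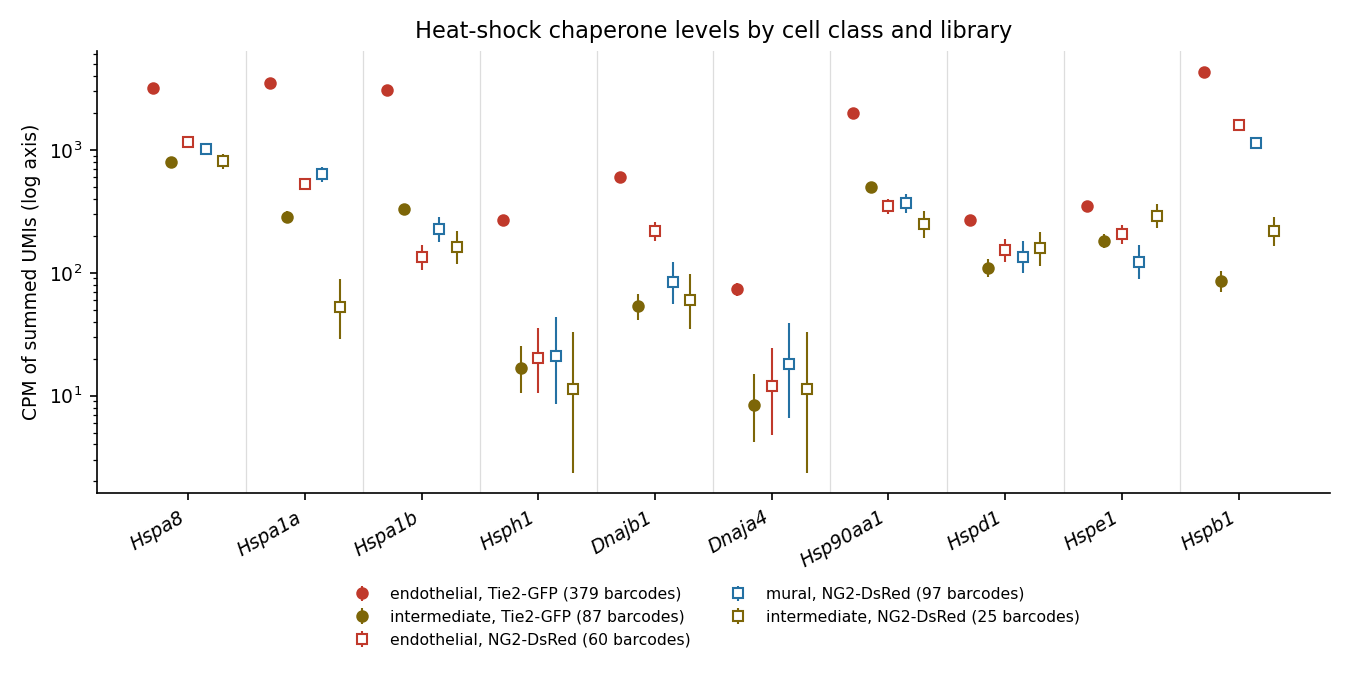
Level of each chaperone gene (x axis) as CPM of summed UMIs on a log axis, with exact 95% Poisson intervals, in Tie2-GFP ECs and intermediate barcodes (filled) and NG2-DsRed ECs, mural and intermediate barcodes (open). The Tie2-GFP ECs are the highest of the 5 classes for all 10 genes. Within the Tie2-GFP library Hspb1 shows the widest spread, from 4331 CPM in ECs to 85.2 CPM in intermediate barcodes. Over the 5 classes Hspa1a spans more, from 3481 CPM in Tie2-GFP ECs to 53.0 CPM in NG2-DsRed intermediate barcodes. That order depends on the 3 NG2-DsRed intermediate barcodes that also carried EC genes. Without them Hspb1 falls to 8.87 CPM in that class and Hspa1a to 44.4 CPM, and Hspb1 spans more.

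Of the HSP70 chaperones, Hspa8, the form made constantly, was the steadiest. Hspa8 was at 3221 CPM in Tie2-GFP ECs (3161 to 3281), 804 CPM in intermediate barcodes (757 to 854), 1161 CPM in NG2-DsRed ECs (1075 to 1251), 1020 CPM in mural (914 to 1135) and 806 CPM in intermediate barcodes (701 to 922). Its level in intermediate barcodes was thus alike in both libraries, and the EC level was the one that differed. The stress-inducible pair Hspa1a and Hspa1b spanned a wider range. Hspa1a was at 3481 CPM in Tie2-GFP ECs and 287 CPM in intermediate barcodes, and at 532, 635 and 53.0 CPM in NG2-DsRed ECs, mural and intermediate barcodes. Hspa1b was at 3046 and 328 CPM in the Tie2-GFP classes and at 134, 226 and 163 CPM in the NG2-DsRed classes. Hspa1a was therefore lower in intermediate barcodes than in ECs by a factor of 12.1 (10.9 to 13.5) in one library and 10.0 (5.90 to 18.6) in the other, whereas Hspa1b was lower by a factor of 9.29 in the Tie2-GFP library and gave a log2 ratio of 0.28 (-0.29 to 0.84) in the NG2-DsRed library.

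The balance within the pair differed between libraries as well as between classes. Hspa1a supplied 53.3% of the summed Hspa1a and Hspa1b UMIs in Tie2-GFP ECs and 46.7% in intermediate barcodes, but 79.9% in NG2-DsRed ECs (exact interval 75.6 to 83.7), 73.8% in mural and 24.6% in intermediate barcodes (14.1 to 37.8). The last value rests on 57 UMIs, and 17 of its 43 Hspa1b UMIs came from 1 barcode. The 2 genes are neighbours on chromosome 17 and their transcripts share 1716 words of 50 bases, 58.8% of those in Hspa1a, so reads from the shared stretch could be split or dropped by the counting. In the last 500 bases, where reads of this assay mostly start, they shared 0 of 451 words. Where the reads of these libraries lay was not measured, and the part of shared reads in the balance was not tested.

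The partners of HSP70 were less abundant. Hsph1, the HSP110 protein that exchanges nucleotide on HSP70, was at 271 CPM (254 to 289) in Tie2-GFP ECs and between 11.4 and 21.1 CPM in the other 4 classes of at least 10 barcodes. Dnajb1, a J protein that delivers clients to HSP70, was at 602 CPM in Tie2-GFP ECs and 53.3 CPM in intermediate barcodes. Among NG2-DsRed classes Dnajb1 was at 219 CPM in ECs (183 to 260), 84.2 CPM in mural (56.0 to 122) and 60.6 CPM in intermediate barcodes. Dnaja4, another J protein, was the rarest, at 73.1 CPM in Tie2-GFP ECs and between 8.37 and 18.1 CPM in those 4 classes, where 3 to 11 UMIs stood behind each value.

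Hsp90aa1, the inducible cytosolic HSP90, was at 1981 CPM in Tie2-GFP ECs (1934 to 2028) and 496 CPM in intermediate barcodes, against 349, 367 and 250 CPM in NG2-DsRed ECs, mural and intermediate barcodes. Here the NG2-DsRed ECs and mural barcodes did not differ beyond their intervals. The mitochondrial pair varied least between classes. Hspe1, the HSP10 lid of the chaperonin, was at 350 and 182 CPM in Tie2-GFP ECs and intermediate barcodes and at 207, 123 and 291 CPM in the NG2-DsRed classes. Hspd1, the HSP60 barrel itself, was at 269 and 110 CPM and at 153, 135 and 159 CPM in the same order. The middle Tie2-GFP EC had 121 CPM of Hspe1 and the middle intermediate barcode 136 CPM, at unequal depth. At 2000 UMIs a barcode Hspe1 was found in 29.4% of these ECs and 27.6% of intermediate barcodes. Of the EC UMIs of Hspe1, 68.0% came from the highest 10% of barcodes.

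Hspb1, the small heat-shock protein known as HSP27 in humans, gave the largest class difference of the 10 genes over all Tie2-GFP barcodes that met the marker rules. It was at 4331 CPM in ECs (4261 to 4401), the highest value of any of these genes, and at 85.2 CPM in intermediate barcodes (70.2 to 103), lower by a factor of 50.8 (42.2 to 61.8). Of those 112 intermediate UMIs, 52 came from 1 barcode. Within the study's limits, which left 6 intermediate barcodes, the log2 ratio of Hspb1 was -3.19, against -5.67 over all barcodes. Dnajb1 (-5.10), Hspa1b (-3.92), Hspa1a (-3.54) and Hsph1 (-3.34) then differed by more. In the NG2-DsRed library Hspb1 was at 1610 CPM in ECs, 1146 CPM in mural and 219 CPM in intermediate barcodes, and 56 of the 58 intermediate UMIs lay in the 3 barcodes that also carried EC genes, 55 of them in a single barcode. Without those 3 barcodes the level was 8.87 CPM, from 2 UMIs. At an equal depth of 2000 UMIs a barcode, Hspb1 was found in 94.6% of Tie2-GFP ECs (91.6 to 96.6) and 8.65% of intermediate barcodes (3.38 to 16.2), and in 86.3%, 69.0% and 6.88% of NG2-DsRed ECs, mural and intermediate barcodes. No class here is known to lack any of the 10 genes, Hspb1 included, so a share that would stand for free RNA cannot be given.

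Counted by fold, 9 of the 10 genes were at least 2-fold lower in intermediate barcodes than in ECs of the Tie2-GFP library and 0 were higher. Hspe1 stood just outside, with a log2 ratio of -0.94 (-1.15 to -0.74), and Hspd1 just inside at -1.30 (-1.56 to -1.04). Of the 9328 genes with at least 20 UMIs and a UMI in at least 10% of 1 class, 25.7% were 2-fold lower and 21.7% 2-fold higher. Of the 10 genes, 8 passed the same filter in the NG2-DsRed library, and 3 of those, Hspa1a, Hspb1 and Dnajb1, were 2-fold lower, against 26% of 6208 genes lower and 15.1% higher. Hsph1 and Dnaja4 had too few UMIs there to be counted. The members' share in that library, 3 of 8, stands near the background. The filter passes a gene through whichever class holds it, so the counts describe these genes and support nothing further.

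In mural barcodes against ECs of the NG2-DsRed library, 1 of the 8 counted genes, Dnajb1, was 2-fold lower (log2 ratio -1.38, -2.02 to -0.78) and 0 were higher, where 14.3% of 6585 genes were lower and 15.6% higher. Hspb1 was lower by less (log2 ratio -0.49, -0.67 to -0.32), Hspa1b was higher (0.75, 0.28 to 1.23) and the interval of Hspa1a reached 0 (0.25, -0.00 to 0.51). With ECs that carried mural genes left out, 16 ECs remained and 0 genes were past 2-fold: Dnajb1 was at a log2 ratio of -0.19 and Hspa1b, turned in sign, at -0.17. With intermediate barcodes that carried EC genes left out as well, the contrast of intermediate barcodes to ECs had 2 genes lower (Hspa1a and Hspb1) and 1 higher (Hspd1, at 1.06). Hspa1b was there at -0.59 and Dnajb1 at -0.73. No share over all genes was taken for these smaller sets.

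The 4 mural barcodes of the Tie2-GFP library, 12355 UMIs in all, are given as values only. Their summed level was 9389 CPM, with 25 UMIs of Hspa1a, 15 of Hspa1b, 16 of Hspa8, 28 of Hsp90aa1, 10 of Hspb1, 4 each of Hspe1 and Hspd1, 3 of Dnajb1 and 0 of Dnaja4, which allows up to 243 CPM of the last. Hsph1, with 11 UMIs, was at 890 CPM (444 to 1593), above its level in Tie2-GFP ECs, and 8 of those UMIs came from 1 barcode. The sums of the 4 barcodes ran from 2701 to 23920 CPM.

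Between the ECs of the 2 libraries, all 10 genes were higher in the Tie2-GFP library and 8 were at least 2-fold higher, with Hspa1b at a log2 ratio of 4.51 (4.19 to 4.85), Hsph1 at 3.74 (2.93 to 4.70) and Hspa1a at 2.71 (2.55 to 2.88). The exceptions were Hspe1 (0.76) and Hspd1 (0.82). Of 8265 genes listed in both files and past the filter, 10.4% were 2-fold higher and 14.2% lower. Fos, the immediate-early AP-1 gene, went the other way, at 5977 CPM in Tie2-GFP and 7569 CPM in NG2-DsRed ECs over the shared genes (log2 ratio -0.34, -0.39 to -0.29). The mural genes summed to 939 CPM in the Tie2-GFP ECs and 5050 CPM in the NG2-DsRed ECs. Without the ECs that carried mural genes, 10 of 10 chaperones were at least 2-fold higher in the Tie2-GFP library, with 16 NG2-DsRed ECs left. Dnaja4 had no UMI in those 16 ECs, so its log2 ratio of 1.47 is a bound set by the floor of 3 UMIs. No share over all genes was taken for this smaller set.

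**Figure D2:**
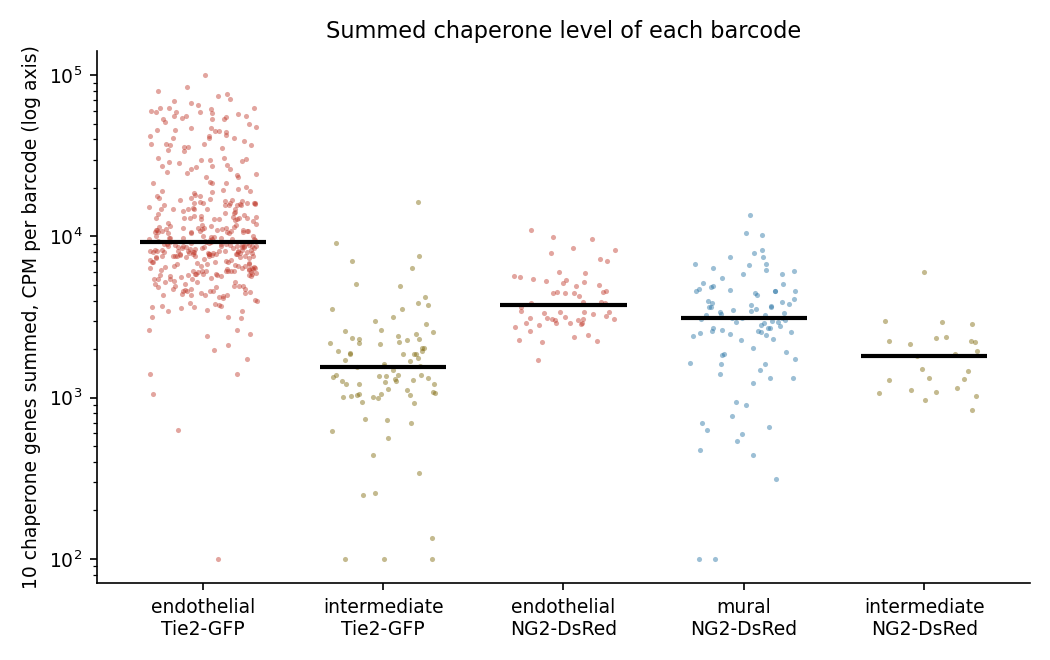
Summed level of the 10 chaperones in each barcode (points, CPM on a log axis) by class and library, with the class median as a bar; the 6 barcodes with 0 UMIs are drawn at 100 CPM. Tie2-GFP ECs reach 100360 CPM, and none of the other 4 classes shown has a barcode above 20000 CPM.

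Tie2-GFP ECs differed widely from one another. The lowest 10% of barcodes had a summed level below 4522 CPM, the median was 9262 CPM, the highest 10% began at 42354 CPM and the maximum was 100360 CPM. Above 20000 CPM lay 79 of the 379 ECs (20.8%), and these held 59.1% of the members' UMIs. In NG2-DsRed ECs the median was 3759 CPM, the highest 10% began at 7355 CPM and the maximum was 10975 CPM, so the upper range of the Tie2-GFP ECs was not met there. At an equal depth of 3000 UMIs the Tie2-GFP values ran from 14.6 UMIs at the bound of the lowest 10% of barcodes to 133 at that of the highest 10%, and the NG2-DsRed values from 8.35 to 22.8. The sum at equal depth had a Spearman rho of 0.162 with the total UMIs of the barcode and -0.131 with its mitochondrial share in the 346 Tie2-GFP ECs deep enough to be thinned. Without thinning, the summed CPM had a rho with that share of -0.395 in Tie2-GFP and -0.388 in NG2-DsRed intermediate barcodes. It was -0.156 in Tie2-GFP ECs, -0.0425 in NG2-DsRed ECs and 0.234 in NG2-DsRed mural barcodes. The part of this in the contrast of intermediate barcodes to ECs was not tested.

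The genes differed in how uneven they were. The variance of the thinned counts over their mean, which is 1 for pure counting noise, was 17.8 for both Hspa1a and Hspa1b, 16.6 for Hspb1, 13.2 for Hsp90aa1 and 7.61 for Dnajb1 in Tie2-GFP ECs, where the median of 4133 genes was 1.10. Hspa8, although as abundant as the inducible pair, was at 2.94. The ratio can rise with the mean count, which was 10.0 UMIs for Hspa1a, 9.30 for Hspa8, 1.59 for Dnajb1 and 0.180 for Dnaja4. It therefore does not rank genes of unlike level by unevenness. In the 56 NG2-DsRed ECs Hspa1a was at 5.12, Hspb1 at 2.72, Hspa1b at 1.87 and Hsp90aa1 at 1.04, against a median of 1.07. Mean counts were lower there too, for Hsp90aa1 0.954 UMIs against 5.54 in Tie2-GFP ECs. The part of this in the lower ratios was not tested. The highest 10% of barcodes held 51.3% of the Hspa1a UMIs and 31.1% of the Hspa8 UMIs in Tie2-GFP ECs. By this share Hspb1 (47.5%) was also below Hspa1a. The other genes were above it, among them Hsp90aa1 at 57.6%, Dnajb1 at 68.0% and Dnaja4 at 84.1%. This share was taken over all ECs without thinning, so the depth of each barcode enters it. It can also rise as a gene becomes rarer, and Dnaja4, the rarest, had a UMI in 20.6% of these ECs. The share therefore does not rank genes of unlike level by unevenness either.

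Within Tie2-GFP ECs at 3000 UMIs the 10 genes varied together. All 45 pairs had a positive Spearman rho over 346 barcodes of 1 library, with a median of 0.268 and a range from 0.145 to 0.787, and 38 were at least 0.2, where 0.0616% of all 8538778 pairs of detected genes reached that value. The closest pair was Hspa1a with Hspa1b (0.787), and the next were Hspb1 with Hspa1b and with Hspa1a (both 0.53), followed by Hsp90aa1 with Hspa1a (0.49). Hspa8 stood furthest from the rest, with a mean rho of 0.211 to the other 9, beside Dnaja4 at 0.214 and Hspd1 at 0.236. These cells chose the genes, so the values describe them and no more.

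The same measure over 56 NG2-DsRed ECs had a median of 0.0272 and a range from -0.142 to 0.311. Of the 45 pairs 25 were positive and 4 were at least 0.2, where 0.511% of 10006101 pairs of detected genes were. The 4 were Hspa1a with Hspb1 (0.311), Hsph1 with Dnaja4 (0.23), Hspa1a with Hspa1b (0.21) and Hspb1 with Dnajb1 (0.21). Detected genes had a UMI in at least 10% of thinned ECs and took in 8 of the 10 chaperones. Hsph1 and Dnaja4, found in 5.89% and 4.55% of thinned ECs, were not among them. The rho of that pair rests on means of 0.0589 and 0.0527 UMIs. The counts were thinner there, with a mean of 0.454 UMIs of Hspa1b and 1.86 of Hspa1a in a thinned barcode, against 8.88 and 10.0 in the Tie2-GFP ECs, and the part of that difference in the lower rho was not tested. The 12 ECs without mural genes had a median of 0.0183, with no value for 1 gene that had no UMI.

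**Figure D3:**
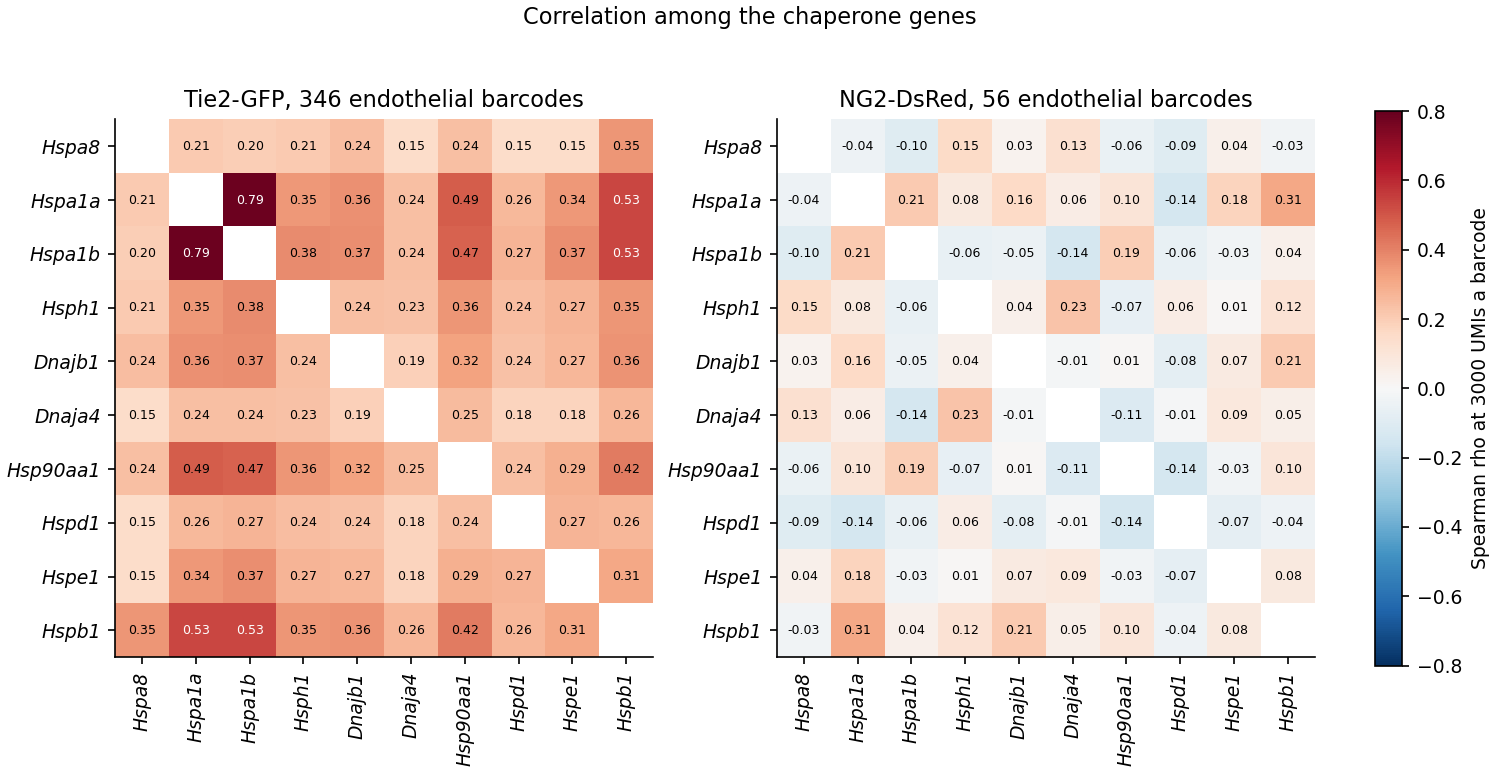
Spearman rho of each pair of chaperone genes over ECs thinned to 3000 UMIs, mean of 20 draws, in the Tie2-GFP (left, 346 barcodes) and NG2-DsRed library (right, 56 barcodes), on 1 colour scale from -0.8 to 0.8. The left panel is positive throughout with its strongest cells among Hspa1a, Hspa1b, Hspb1 and Hsp90aa1, and the right panel is mixed in sign.

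Fos was less closely tied to the chaperones than they were to one another in Tie2-GFP ECs. Its rho with the 10 genes had a median of 0.145 in Tie2-GFP ECs, from 0.0226 for Hspd1 to 0.234 for Hspa1a, and all 10 were positive. The median over all detected genes was -0.00839 and the upper quartile 0.0226. Of 4133 genes 34 passed 0.2, as Hspa1a and Hspa8 (0.223) did. In NG2-DsRed ECs the median was 0.0583, with a range from -0.112 for Hspa8 to 0.268 for Dnajb1, and 7 were positive. Hspa1a kept a similar value there, at 0.250. Over all detected genes of those ECs the median was -0.00926 and the upper quartile 0.0530.

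Other immediate-early genes did not share one pattern. In Tie2-GFP ECs Jun, the partner of Fos in AP-1, had a median rho of 0.30 with the chaperones and 0.53 with Hspa1b, above the value of Fos for each of the 10 genes. Dusp1, a phosphatase that switches off MAP kinases, followed at 0.19. At the other end Ier3, Zfp36 and Socs3 had medians of -0.19, -0.14 and -0.11, although their rho with Fos was 0.32, 0.48 and 0.44. Hspa8 had the highest rho of the 10 chaperones with Atf3 (0.30) and Ier3 (0.09), and Hspa1b the lowest (0.00 and -0.28). The others lay between, with Dnajb1 at 0.13 and -0.05. In NG2-DsRed ECs Hspa8 was at 0.0011 with Atf3 and -0.0140 with Ier3. In NG2-DsRed ECs the medians of the 18 genes listed in that file lay between -0.00 and 0.14.

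**Figure D4:**
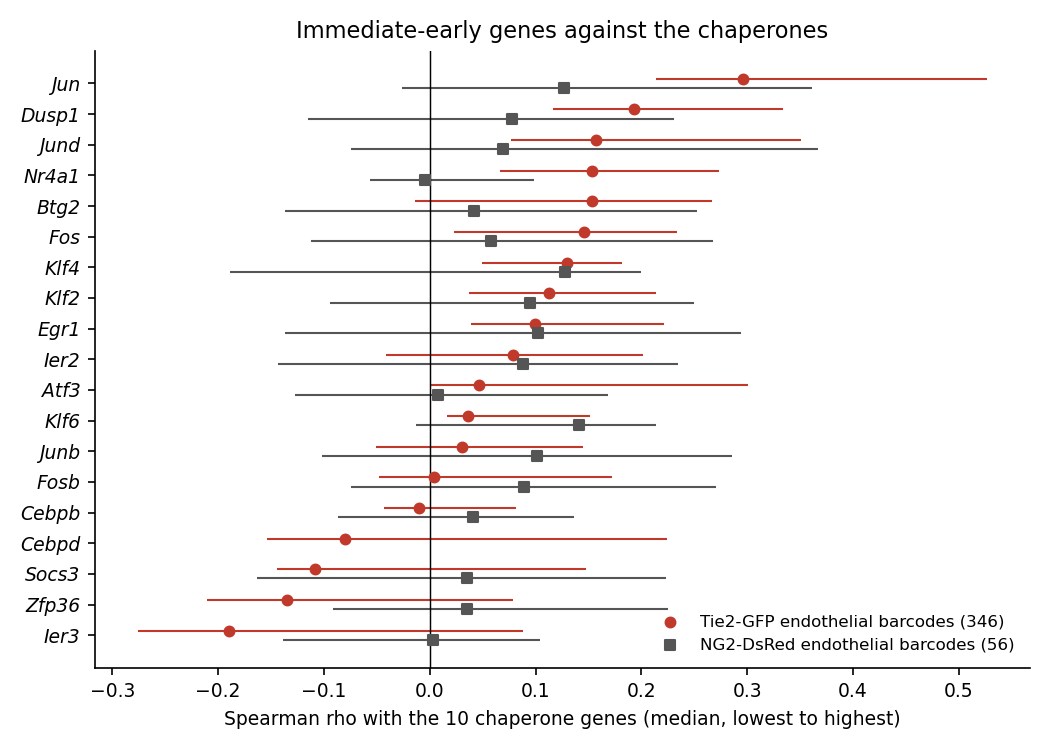
Spearman rho between each immediate-early gene (y axis) and the 10 chaperones over ECs thinned to 3000 UMIs: points mark the median over the chaperones and lines run from the lowest to the highest, in the Tie2-GFP (circles, 346 barcodes) and NG2-DsRed library (squares, 56 barcodes). Jun is highest in the Tie2-GFP library at 0.30 and Ier3 lowest at -0.19.

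Among 1623 genes with a UMI in at least 25% of thinned Tie2-GFP ECs, the 10 with the highest mean rho to the chaperones were Jun (0.330), Dnaja1 (0.273), Ccn1 (0.262), Dusp1 (0.214), Hsp90ab1 (0.211), Phlda1 (0.206), Swt1 (0.183), Jund (0.182), Txnip (0.167) and Nr4a1 (0.157). In NG2-DsRed ECs Jun was at 0.133, with 4 of 4474 genes above it, Jund at 0.0994 (13 above) and Dusp1 at 0.0739 (50 above). Lower there were Swt1 at 0.0331 (530 above), Phlda1 at 0.0317 (585), Ccn1 at 0.0137 (1283) and Nr4a1 at 0.00695 (1599). Dnaja1, a J protein, was at 0.0605 in those ECs (115 above). Hsp90ab1, the constant form of HSP90, was at 0.0141 (1272 above) and Txnip at -0.0326 (3820 above).

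The rest of the chaperone network was read from lists of related genes in the same contrast of intermediate barcodes to ECs, where the shares over all genes were 25.7% lower and 21.7% higher in the Tie2-GFP library and 26% lower and 15.1% higher in the NG2-DsRed library. The lists are short, and most of their counts stand near those shares. Of 6 HSP90 and HSP70 relatives, 3 were 2-fold lower and 2 higher in the Tie2-GFP library: Hsp90ab1 was at 960 against 3233 CPM (log2 ratio -1.75, -1.84 to -1.67), while Hspa13 and Hspa4l had ratios of 1.30 and 1.27. Of the 4 counted in the NG2-DsRed library 1, Hspa2, was lower, and Hsp90ab1 was at -0.78. Of the J proteins, 1 of 7 was lower and 1 higher in the Tie2-GFP library, with Dnaja1 at 385 against 2204 CPM (log2 ratio -2.52), and 1 of 8 was lower in the NG2-DsRed library, where Dnaja1 was at -0.56 (-0.90 to -0.23).

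The small heat-shock proteins split. Cryab, the alpha-B crystallin and a relative of Hspb1, ran opposite to it: 8.44 CPM in Tie2-GFP ECs and 1539 CPM in intermediate barcodes (log2 ratio 7.51, 6.98 to 8.09), and 40.7 and 2066 CPM in the NG2-DsRed library (5.67, 5.08 to 6.32). Hspb8 was lower in intermediate barcodes, at 9.13 against 69.6 CPM and at 18.9 against 45.8 CPM, the latter from 5 and 27 UMIs. Mural barcodes held 208 CPM of Cryab, between the other classes of their library.

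Of 13 endoplasmic reticulum chaperones, 7 were 2-fold higher and 0 lower in Tie2-GFP intermediate barcodes, and 4 were higher and 0 lower in the NG2-DsRed library, beside 21.7% and 15.1% of all genes higher. Sdf2l1 was at 91.3 against 10.5 CPM and at 136 against 20.3 CPM, and the disulfide isomerase gene Pdia4 was at 174 against 64.6 CPM and at 204 against 72.9 CPM. Hspa5, the HSP70 of that compartment, was level in the Tie2-GFP library (log2 ratio -0.03, -0.13 to 0.07). Of the 8 subunits of the cytosolic chaperonin, which folds actin and tubulin, 1 was 2-fold lower in the Tie2-GFP library (Cct4, log2 ratio -1.03). All 8 were below 0 there, as were 4865 of the 9328 genes counted. In the NG2-DsRed library 1 of 7, Cct7, was 2-fold lower, and 6 were below 0, as were 3563 of 6208 genes. Of the mitochondrial list 1 of 6, the protease subunit Clpp (log2 ratio 1.73), was 2-fold higher in the Tie2-GFP library, and 0 of 5 passed 2-fold in the NG2-DsRed library. Among co-chaperones 2 of 13, Stub1 (1.40) and Bag1 (1.17), were higher and 1, Ptges3 (-1.04), was lower, with 0 of 12 past 2-fold in the NG2-DsRed library. None of the regulators passed 2-fold, and Hsf1, which encodes heat-shock factor 1, was at 19.0 against 30.6 CPM in the Tie2-GFP library.

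All 19 immediate-early genes were 2-fold lower in Tie2-GFP intermediate barcodes than in ECs, and all 18 that are listed were so in the NG2-DsRed library. Fos was at 753 against 5930 CPM and at 1491 against 7534 CPM, Atf3 at 14.5 against 2390 CPM and at 60.6 against 2076 CPM. As a whole, related chaperones varied little with the 10 genes within Tie2-GFP ECs: the median rho was -0.0186 for the endoplasmic reticulum list, 0.00929 for the cytosolic chaperonin, 0.0180 for co-chaperones and 0.0285 for J proteins, against 0.0885 for the immediate-early list. Median log2 ratios over the counted genes were -3.17 for the chaperones and -3.62 for the immediate-early list in the Tie2-GFP library, -0.50 and -2.61 in the NG2-DsRed library, and -0.07 and -0.20 over all genes.

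**Figure D5:**
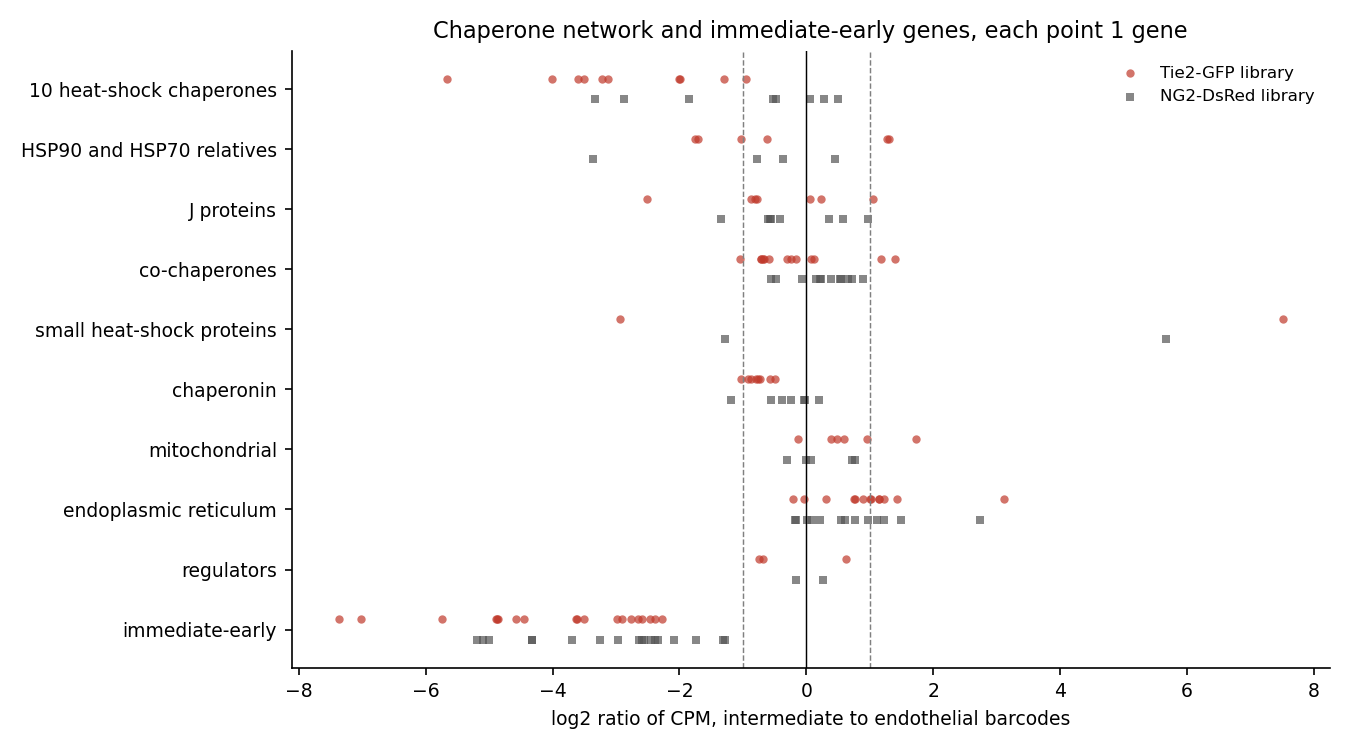
Log2 ratio of CPM in intermediate barcodes to ECs (x axis) for each counted gene of the 10 chaperones, 8 lists of related chaperones and the immediate-early list (y axis), in the Tie2-GFP (circles) and NG2-DsRed library (squares); dashed lines mark 2-fold. Cryab is the point furthest to the right in both libraries, at 7.51 and 5.67.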

How the data were processed

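Single-cell libraries of the SV of 2 reporter lines were analysed, 1 library each. The deposited matrices hold raw UMI counts per gene and barcode, made by the authors from 10x reads. The submitters' processing notes name mm10 and bcl2fastq 2.20.0.422, and the matrix headers name Cell Ranger 7.0.0 (Tie2-GFP) and software 3.0.0 (NG2-DsRed). Columns of other samples numbered 0.

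The genes and lists were chosen with earlier results of these data known. Every deposited barcode meeting a marker rule was used, because only 6 of 87 Tie2-GFP intermediate barcodes met the study's limits (200 to 6000 genes and 200 to 30000 UMIs, or 5000 and 20000 for NG2-DsRed, at most 5% mitochondrial and 40% ribosomal UMIs), which were run as an alternative. The study's methods name scDblFinder for doublets, no caller was run here, and barcodes with markers of 2 classes were left out in an alternative. UMIs were summed per class and scaled to CPM, with no length scaling since a 3′ UMI counts a molecule once. Intervals were exact 95% intervals (Poisson for levels, Clopper-Pearson for shares, conditional binomial for ratios). Genes with at least 20 UMIs over both classes and a UMI in 10% of barcodes of 1 class gave the background. For shares and correlations each barcode was thinned 20 times to 2000 or 3000 UMIs, leaving out shallower ones (17 and 33 Tie2-GFP ECs, 2 and 5 Tie2-GFP intermediate, 0 and 4 NG2-DsRed ECs, 19 and 47 mural, 1 and 1 NG2-DsRed intermediate). A floor of 3 UMIs stands for a count of 0. Named genes were the 10 chaperones, Fos, up to 4 genes a list with the largest log2 ratio, and the 10 genes nearest in mean rho; Hspa5 and immediate-early genes named for their rho were named after their values were seen. Hspa14, Cct6a and Cebpd were not matched by identifier in the NG2-DsRed file. The code ran under numpy 2.4.6 and scipy 1.17.1 (Python 3.11.15, figures with matplotlib 3.10.9) and was tested on simulated data.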

Additional observations from a re-analysis of the deposited data

Results flagged for a closer look

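For 3 chaperones the ratio of intermediate barcodes to ECs had opposite signs in the libraries. The log2 ratio in the NG2-DsRed library was 0.28 for Hspa1b, 0.50 for Hspe1 and 0.0596 for Hspd1, against -3.21, -0.94 and -1.30 in the Tie2-GFP library. With 1 library a line the difference was not tested, and the NG2-DsRed intervals of Hspa1b (-0.29 to 0.84) and Hspd1 (-0.50 to 0.60) include 0. Of the 43 Hspa1b UMIs in intermediate barcodes of the NG2-DsRed library, 17 came from 1 barcode. These ratios are of summed UMIs. By the middle barcode of the Tie2-GFP library Hspe1 was lower in ECs, at 121 against 136 CPM in intermediate barcodes. Hspa1b (1003 against 0 CPM) and Hspd1 (116 against 71.3 CPM) stayed higher in ECs. These medians are at unequal depth, with a median of 7431 UMIs in ECs and 15955 in intermediate barcodes. At 2000 UMIs a barcode the order of Hspe1 was not kept. It was found in 29.4% of ECs (24.6 to 34.3) and 27.6% of intermediate barcodes (18.0 to 37.8).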

How the results depend on the processing

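No paired analysis was possible because each reporter line has 1 library and no test was made. Of the alternative values of the main results, 84 stayed near the reported ones and 18 moved. Within the study's limits 6 Tie2-GFP and 9 NG2-DsRed intermediate barcodes remained, and the summed log2 ratio of intermediate barcodes to ECs in the Tie2-GFP library was -2.60; it was -2.78 without mitochondrial genes in the total and -2.96 under a stricter marker rule. Leaving out barcodes with markers of 2 classes gave 2 genes 2-fold lower and 1 higher (Hspd1) in NG2-DsRed intermediate barcodes, 0 lower in mural barcodes and a median rho with Fos of 0.152 in the 12 NG2-DsRed ECs left. The median rho among members in Tie2-GFP ECs was 0.248 at 2000 UMIs, 0.2995 at 5000, 0.379 as Pearson r of log2 counts, 0.317 without thinning and 0.179 in the 32 ECs with mural genes (this set, and the count of genes with no filter on low counts, were added with the data in view; the latter changed no count). The median with Fos was 0.167 as Pearson r, 0.182 without thinning (0.114 in NG2-DsRed ECs) and 0.0813 in those 32 ECs. The median share of Tie2-GFP ECs with a UMI rose from 55.2% to 63.4% at 3000 UMIs. In the Tie2-GFP library 9 or 10 members were 2-fold lower under each alternative. No ratio past 2-fold in the main results changed sign in any comparison. Without barcodes with markers of 2 classes, Dnajb1 fell inside 2-fold in the NG2-DsRed library, at -0.19 in mural and -0.73 in intermediate barcodes against ECs. Hspd1, at 1.06 in that intermediate contrast, was at -0.03 with barcodes weighted equally. Depth limits Hsph1 and Dnaja4 in the NG2-DsRed library, where each class held 3 to 12 UMIs of them.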
